A study of Homo sapiens with 3 samples.

Results

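The genes described here are BCL6, IRF4, IRF8, PRDM1, XBP1 and BACH2, transcription factors that govern whether a B cell stays in the germinal centre state or becomes a plasma cell. They were taken by name, through GENCODE release 29 symbols, from a count table of 15808 genes, and all 6 were found. RNA sequencing covered 3 replicate libraries of OCI-Ly10, an established human cell line from a diffuse large B cell lymphoma that belongs to the activated B cell-like subtype, each treated for 6 h with MZ1. MZ1 is a degrader: one end binds BET bromodomain proteins, the other recruits the ubiquitin ligase VHL, and the bound BET protein is broken down. All libraries carry the treatment and untreated cells were not analysed here, so the values are levels in treated cells of 1 line and no effect of MZ1 was estimated. Whether the replicates were grown separately is not stated in the labels. Every p-value therefore concerns these samples alone, and differences between them may be technical.

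In the germinal centre, BCL6 represses genes of activation, of the DNA damage response and of plasma cell differentiation, and it recruits corepressors such as NCOR1 and BCOR to do so. BACH2, a bZIP factor that pairs with small MAF proteins, also holds back PRDM1. IRF4 and IRF8 are related factors that bind DNA poorly alone and pair with PU.1, SPIB or AP-1 proteins such as BATF, and IRF4 at high dose favours exit from the germinal centre, while IRF8 is known for supporting the germinal centre state. PRDM1 encodes BLIMP1, which shuts down the B cell programme, and XBP1 then expands the secretory pathway of the plasma cell. In lymphomas of the activated B cell-like subtype, IRF4 is typically high and the last steps of this switch are often blocked.

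Gene counts cannot tell apart the forms of XBP1 and PRDM1, and the sequences that separate those forms are shown for that reason. The XBP1 message becomes active when the sensor ERN1 (IRE1) cuts out a short stretch of its coding sequence. GENCODE release 29 places the stretch, 26 bases long, at chr22:28796122-28796147 (GRCh38, minus strand), and 4 of the 7 annotated XBP1 transcripts keep it while 2 lack it. It is in capitals in the first of the following lines, with 30 bases on either side, and absent from the second.
XBP1, stretch kept: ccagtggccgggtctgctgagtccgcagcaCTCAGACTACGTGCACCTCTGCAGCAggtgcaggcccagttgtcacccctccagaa
XBP1, stretch removed: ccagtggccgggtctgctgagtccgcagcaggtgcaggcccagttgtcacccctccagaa
Since both forms count towards the same gene, the XBP1 values say nothing of how much of the message was active.

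PRDM1 has start sites that give different proteins, and BCL6 represses its own gene. The windows run from 250 bases before to 50 bases after the start site (RefSeq, GRCh38.p14), and capitals mark matches, on either strand, to 6 motifs: TTCNNNGAA for BCL6 (a pattern that STAT sites also match), TGAGTCA for BACH and AP-1 factors, AGNGAAAG for BLIMP1, ACGTGG for XBP1, the interferon response motif of IRF factors and the ETS-IRF composite motif.
BCL6, chr3:187745419-187745718, minus strand: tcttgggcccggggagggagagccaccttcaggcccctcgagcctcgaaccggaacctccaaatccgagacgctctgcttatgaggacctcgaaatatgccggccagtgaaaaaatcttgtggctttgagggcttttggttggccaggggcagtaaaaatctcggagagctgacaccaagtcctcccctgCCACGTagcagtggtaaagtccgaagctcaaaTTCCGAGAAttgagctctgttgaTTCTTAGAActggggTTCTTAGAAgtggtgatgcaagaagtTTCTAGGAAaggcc
PRDM1 upstream start, chr6:106086086-106086385, plus strand: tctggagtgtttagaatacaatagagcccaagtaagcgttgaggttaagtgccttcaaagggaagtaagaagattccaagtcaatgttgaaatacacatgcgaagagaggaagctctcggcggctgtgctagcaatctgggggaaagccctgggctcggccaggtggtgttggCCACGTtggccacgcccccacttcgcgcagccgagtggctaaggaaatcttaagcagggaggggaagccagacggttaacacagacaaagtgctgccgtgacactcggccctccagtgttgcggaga
PRDM1 downstream start, chr6:106098691-106098990, plus strand: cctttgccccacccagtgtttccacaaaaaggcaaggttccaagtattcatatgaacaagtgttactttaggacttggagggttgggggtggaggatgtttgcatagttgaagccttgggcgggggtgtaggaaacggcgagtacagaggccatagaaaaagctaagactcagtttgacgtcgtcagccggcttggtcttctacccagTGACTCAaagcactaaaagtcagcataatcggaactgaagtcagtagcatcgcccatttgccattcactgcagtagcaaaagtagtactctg
The BCL6 window held 4 matches to the BCL6 motif, TTCCGAGAA, TTCTTAGAA at 2 places and TTCTAGGAA. At least 1 match was found in 7.66% of 35116 promoter windows of the same length, and 4 or more in 7 of them. In all, 10 windows of the 6 genes were searched, and those of IRF8 overlap each other. A match to the XBP1 motif stood in 2 of the 10, the BCL6 window and that of the upstream PRDM1 start, against 9.72% of all windows. TGACTCA, the BACH and AP-1 motif on the other strand, stood in the downstream PRDM1 window, and TGAGTCA in a second BCL6 window. That is 2 of the 10, against 4.95% of all windows, and whether the 10 differ from such shares was not tested. The windows of IRF4, IRF8, XBP1 and BACH2 held no match to any of the 6 motifs, and no member window held the IRF motif (3.57% of all windows), the ETS-IRF motif (2.82%) or the BLIMP1 motif (7.99%). These are matches of letters in a genome, and nothing about binding was measured.

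Library totals were 5474462, 1441246 and 1314812 counts in replicates 1, 2 and 3, so replicate 1 gives the most precise values. Levels are given in CPM of the TMM-scaled library, in which 1 count was worth 0.20, 0.629 and 0.767 CPM. Genes are compared with each other per kb of merged exons, except where CPM or counts are named. Listed genes were chosen by mean CPM. Intervals are exact 95% Poisson intervals of the count, which cover counting error only. The 6 listed B cell markers reached 1 CPM in every library and summed to 1663, 1120.0 and 1976 CPM. Of the T cell markers only CD2 was analysed here, with 7, 0 and 0 counts. Of the myeloid markers, 2 of 3 analysed here reached 1 CPM in every library, with sums of 31.0, 24.5 and 23.8 CPM. The epithelial markers KRT8 and CDH1 summed to 46.8, 17.6 and 33.8 CPM, of which CDH1 had 5, 0 and 0 counts, and 3 endothelial and stromal markers summed to 16.8, 10.1 and 6.90 CPM. The part of these signals in the levels of the 6 regulators was not tested, and in bulk RNA fewer cells of a type and less RNA per cell cannot be told apart.

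IRF4 (ENSG00000137265.13, chr6:391739-411447, plus strand) was the highest of the 6 by a wide margin. It had 2597, 428 and 540 counts, or 519, 269 and 414 CPM, in replicates 1, 2 and 3. Replicate 2 was the lowest, at 45.6 CPM per kb (interval 41.4 to 50.1), against 88.0 and 70.2 CPM per kb in replicates 1 and 3. The mean was 68.0 ± 21.3 CPM per kb (SD, n = 3). By its level in replicates 1, 2 and 3, IRF4 lay above 96.1%, 94.0% and 95.3% of the genes with at least 1 CPM in every library. Of the summed level per kb of the 6 genes, IRF4 made up 71.1%, 61.6% and 67.6%.

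IRF8 (ENSG00000140968.9, chr16:85898803-85922609, plus strand) had 287, 45 and 87 counts, or 57.4, 28.3 and 66.7 CPM. Replicate 2 was again the lowest, and its interval of 20.6 to 37.8 CPM did not reach those of replicate 1 (50.9 to 64.4) and replicate 3 (53.5 to 82.3). Per kb, the mean was 9.84 ± 3.89 CPM, near that of PRDM1.

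PRDM1 (ENSG00000057657.13, chr6:106086320-106109939, plus strand) had 313, 125 and 78 counts, or 62.6, 78.6 and 59.8 CPM. It was the steadiest of the 6, with a highest to lowest ratio of 1.31 and intervals that overlapped between all 3 libraries. Its mean was 10.5 ± 1.58 CPM per kb, and it lay above 70.9%, 79.3% and 71.2% of the expressed genes in the 3 libraries. The SD of its log2 values, 0.21, was larger than that of 13.2% of the 7510 genes whose mean reached 10 CPM.

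XBP1 (ENSG00000100219.15, chr22:28794555-28800597, minus strand) had 129, 20 and 34 counts, or 25.8, 12.6 and 26.1 CPM. Replicates 1 and 3 lay close together, and replicate 2 was lower, although its interval of 7.68 to 19.4 CPM overlapped that of replicate 3 (18.1 to 36.4). XBP1 has the shortest merged exons of the 6, at 3.03 kb, and its mean per kb was 7.09 ± 2.55 CPM, closer to PRDM1 and IRF8 than its CPM alone would place it.

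The repressors that hold the germinal centre state were the lowest per kb. Without length correction XBP1 lay above BCL6 by a log2 ratio of only 0.17 ± 0.90 and above BACH2 by 0.25 ± 1.51. In CPM, XBP1 was below both in replicate 2, at 12.6. BCL6 (ENSG00000113916.16, chr3:187721377-187745727, minus strand) had 113, 34 and 16 counts, or 22.6, 21.4 and 12.3 CPM, with overlapping intervals of 18.6 to 27.2, 14.8 to 29.9 and 7.02 to 19.9 CPM. BACH2 (ENSG00000112182.13, chr6:89926529-90296908, minus strand) had 122, 46 and 9 counts, or 24.4, 28.9 and 6.90 CPM. Replicate 3 was low for both, and for BACH2 its interval of 3.16 to 13.1 CPM did not reach those of the other libraries. Means per kb were 3.16 ± 0.95 CPM for BCL6 and 2.05 ± 1.19 CPM for BACH2. BCL6 lay above 47.6%, 50.1% and 32.6% of expressed genes and BACH2 above 36.3%, 44.5% and 10.8%. Both genes share exon bases with opposite-strand genes, and since no strand setting is stated, reads of those genes cannot be told apart from theirs.

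**Figure D1:**
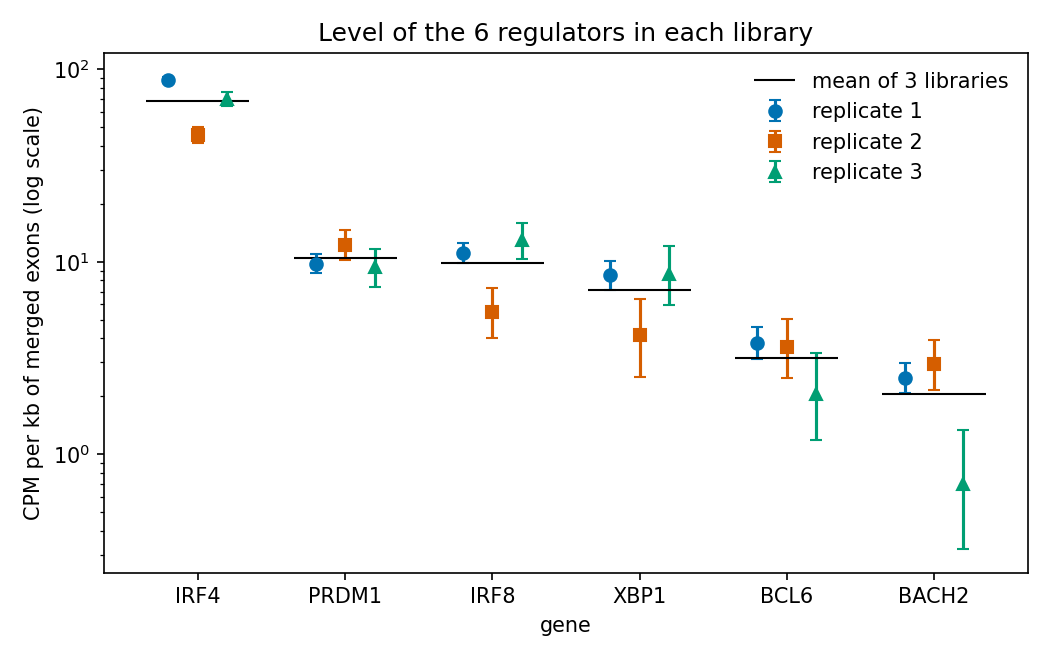
Level of each gene in CPM per kb of merged exons (log axis) in replicates 1, 2 and 3, with exact 95% Poisson intervals of the counts as bars and the mean of the libraries as a line. IRF4 sits between 45.6 and 88.0, above every other gene in every library, and BACH2 in replicate 3 is the lowest point at 0.706.

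The order by mean level per kb was IRF4, PRDM1, IRF8, XBP1, BCL6 and BACH2. For each of the 15 pairs a log2 ratio was taken in every library, on log2(CPM + 0.5) corrected for exon length, and 14 kept 1 direction in 3 of 3 libraries. The exact two-sided sign-flip permutation test gave p = 0.25 for these 14, the smallest that 3 libraries allow, and 0.268 after Benjamini-Hochberg adjustment over 15 pairs, so no pair could pass 0.05.

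IRF4 exceeded PRDM1, its neighbour in the order, by a log2 ratio of 2.65 ± 0.67 (SD, n = 3), a 6.26-fold difference. It exceeded IRF8 by 2.81 ± 0.33, XBP1 by 3.25 ± 0.22, BCL6 by 4.39 ± 0.71 and BACH2 by 5.19 ± 1.31. In each of these 5 pairs the counting intervals lay apart in 3 of 3 libraries. The ratio to XBP1 was the least variable, and that to BACH2 ran from 3.93 in replicate 2 to 6.54 in replicate 3.

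PRDM1 and IRF8 were not separated. Their log2 ratio was -0.18, 1.15 and -0.46 in replicates 1, 2 and 3, with a mean of 0.17 ± 0.86 (exact permutation p = 1), so the order of the 2 genes changed with the library. IRF8 lay above XBP1 by 0.37, 0.37 and 0.57, but their counting intervals overlapped in every library. PRDM1 lay above XBP1 by 0.60 ± 0.79, of which replicate 2 gave 1.52 and the other libraries 0.18 and 0.10. XBP1 lay above BCL6 by 1.14 ± 0.90, with intervals apart in 2 libraries, and BCL6 above BACH2 by 0.80 ± 0.63, with intervals apart in 1.

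The driver of plasma cell differentiation and the germinal centre repressors were further apart, but IRF8 and XBP1 lay above those repressors too. PRDM1 exceeded BCL6 by 1.34, 1.75 and 2.13 in replicates 1, 2 and 3, a mean of 1.74 ± 0.40 or 3.34-fold, with intervals apart in all 3. It exceeded BACH2 by 2.55 ± 0.95, also with intervals apart in all 3. IRF8 exceeded BCL6 by 1.57 ± 1.00, and there replicate 2 gave only 0.60. Over BACH2, IRF8 lay higher by 2.38 ± 1.62, with intervals apart in all 3, and XBP1 by 1.94 ± 1.51, with intervals apart in 2.

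**Figure D2:**
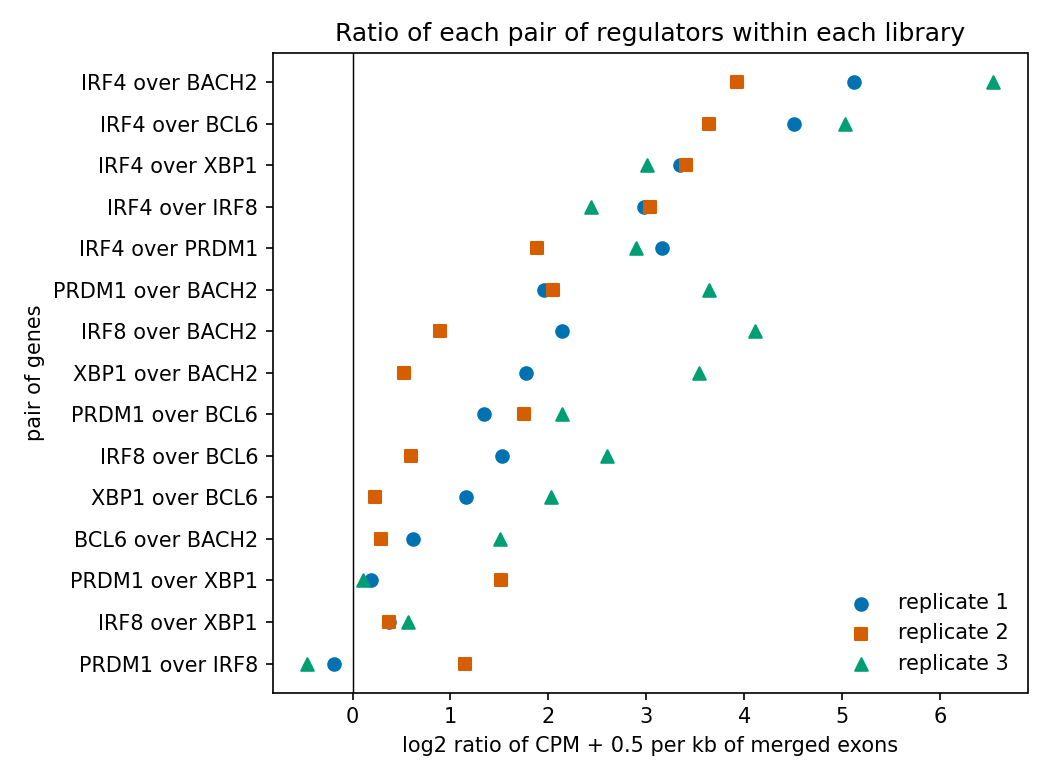
Log2 ratio of CPM + 0.5 per kb of merged exons for each of the 15 pairs of genes, 1 point per replicate library, with a line at equal levels. All pairs lie to the right of the line in every library except PRDM1 over IRF8, at -0.18, 1.15 and -0.46.

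Differences between libraries were tested by chi-square, comparing each gene's 3 counts with those of equal Poisson expression at the TMM library sizes. The 10016 genes whose mean count reached 10 were tested, and p-values were adjusted by Benjamini-Hochberg over all of them. The test compares libraries, not conditions, and its p-value measures departure from counting error, with no estimate of the spread between libraries. Of the 6 genes 4 passed an adjusted p of 0.05, against 67.2% of all genes tested. The test passes more genes at high counts, so shares of all genes, here and below, are not matched for count. Each of the 6 had a mean count of at least 54.3. With a mean count of at least 50 required, 4631 of 5707 genes passed, and again 4 of the 6. Whether the 6 differ from either share was not tested. IRF4 passed (adjusted p = 6.34e-37, chi-square test), and so did IRF8 (1.23e-05), BACH2 (0.00031) and XBP1 (0.0136). PRDM1 (0.0916) and BCL6 (0.0939) did not. PRDM1 passed with DESeq2 size factors (0.0374, chi-square test) and with column totals (0.000671), while XBP1 did not with column totals (0.0797).

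The libraries that set these results differed between genes. Without replicate 2, IRF8 (adjusted p = 0.322, chi-square test) and XBP1 (0.968) no longer passed and BCL6 did (0.0457), and 3 of the 6 genes passed against 45.2% of all genes. Without replicate 3, BACH2 no longer passed (0.411, chi-square test), and again 3 of 6 passed against 56.2% of all genes. Without replicate 1, the deepest library, 4 of 6 passed against 33.8% of all genes. IRF4 passed with any of the 3 left out, with adjusted p from 2.33e-36 to 9.19e-06 by the chi-square test.

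IRF4, IRF8 and XBP1 were each lowest in replicate 2, as were 40.5% of genes whose mean reached 10 CPM. BCL6, PRDM1 and BACH2 were each lowest in replicate 3, as were 25.5% of those genes. Each library was the highest for 2 of the 6, replicate 1 for IRF4 and BCL6, replicate 2 for PRDM1 and BACH2 and replicate 3 for IRF8 and XBP1, against 43.1%, 28.7% and 28.2% of those genes. Relative to their own means in log2 units, replicate 2 lay at -0.52 for IRF4, -0.74 for IRF8 and -0.68 for XBP1, and at 0.23, 0.24 and 0.74 for BCL6, PRDM1 and BACH2. Replicate 3 lay at -0.54, -0.15 and -1.25 for BCL6, PRDM1 and BACH2. Of the B cell markers, 5 of 6 were also lowest in replicate 2, and the part of this in the values of IRF4, IRF8 and XBP1 was not tested.

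Each gene was set beside the genes in its own eighth of GC content. For IRF4, at 47.1% GC, the median departure of those genes in replicate 2 was -0.04, against -0.52 for IRF4 itself. For XBP1, at 41.5% GC, it was 0.10 against -0.68, and for IRF8, at 52.0% GC, -0.17 against -0.74. For BACH2 in replicate 3, at 47.2% GC, the median was -0.02 against -1.25, and for BCL6, at 49.9% GC, 0.03 against -0.54. For PRDM1 in replicate 3, at 45.7% GC, it was -0.02 against -0.15. Since each gene is shown in the library where it was lowest, these values are a description, and the part of GC content in the differences was not tested.

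**Figure D3:**
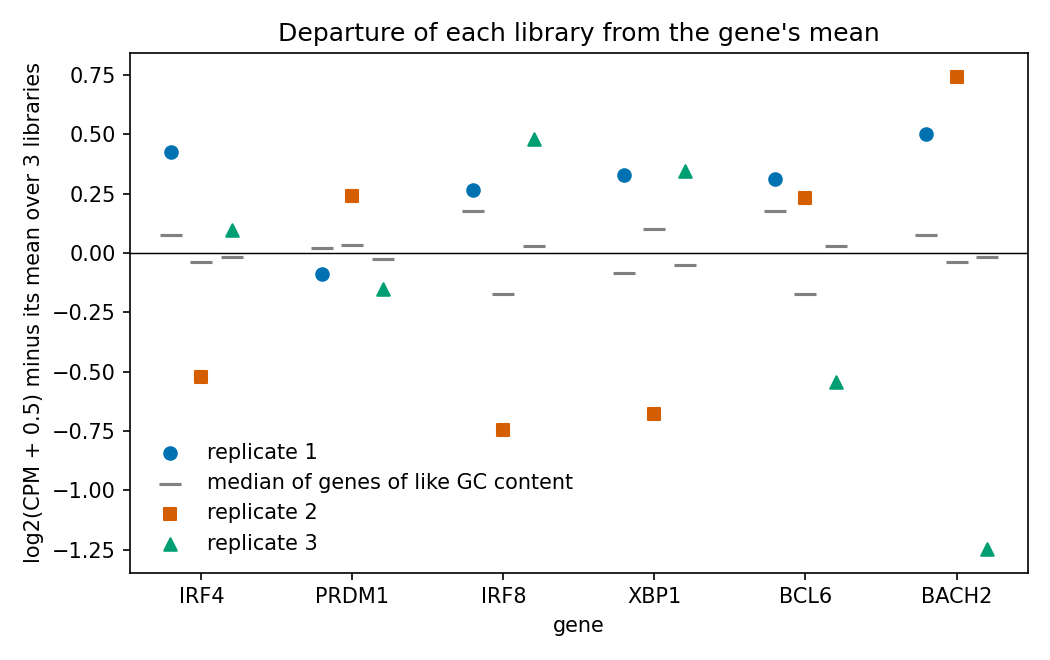
Departure of log2(CPM + 0.5) in each replicate library from the gene's mean over 3 libraries, with grey dashes at the median departure of genes in the same eighth of GC content. Replicate 2 is the low point for IRF4, IRF8 and XBP1, and replicate 3 for PRDM1, BCL6 and BACH2, down to -1.25.

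Among 12454 other protein-coding genes, those with the most similar values over the 3 libraries, by the root mean square difference of log2(CPM + 0.5), were HNRNPF for IRF4 (0.03), DDX60 for BCL6 (0.03), UHRF2 for PRDM1 (0.04), CLP1 for XBP1 (0.05), JAZF1 for BACH2 (0.06) and GSK3A for IRF8 (0.11). With 3 libraries, likeness of this kind is a description only.

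The levels of partners, inputs and targets give the setting in which the 6 genes were measured. Of 115 such genes analysed here, 101 reached 1 CPM in every library, or 87.8%, against 68% of all genes in the table. By the chi-square test 71 of 95 tested varied between libraries, against 67.2% of all genes. Values that follow are means in CPM per kb ± SD over the 3 libraries, beside a median over all genes of 1.95, 1.95 and 2.15. The highest and lowest genes of a list were picked by mean CPM, and their order per kb can differ. For 52 of the 115 an opposite-strand gene shares exon bases, and the reads of the pair cannot be told apart. Overlap with genes on the same strand was not examined, and how reads in shared exons were counted is not stated. A low count, as for MEF2B or TXNDC5, may therefore not mean low expression.

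The IRF family was led by IRF4. IRF3, which mediates the interferon response to viral nucleic acids, had 19.5 ± 8.43, IRF8 9.84 ± 3.89 and IRF2, a repressor of interferon responses, 9.03 ± 0.66. Below them were IRF5 at 3.60 ± 1.75, IRF7 at 2.20 ± 1.99 (1.11 without replicate 3) and IRF1 at 1.15 ± 0.21, and IRF9 had 2, 1 and 2 counts. All but IRF9 were lowest in replicate 2, 7 of 8 against 40.5% of genes whose mean reached 10 CPM, a level that not all of the family reached. IRF1 and IRF2 did not pass the test between libraries (adjusted p = 0.688 and 0.713, chi-square test).

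**Figure D4:**
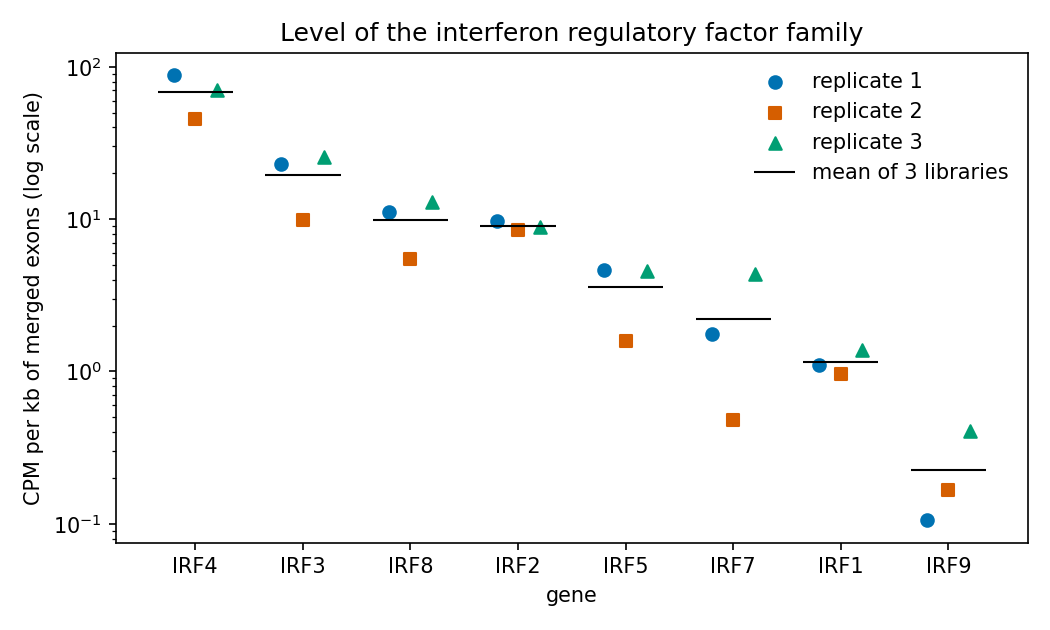
Level of the 8 interferon regulatory factor genes analysed here, in CPM per kb of merged exons (log axis), 1 point per replicate library, with the mean as a line. IRF4 is above the rest of its family in every library, and replicate 2 is the lowest point for each gene except IRF9.

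Partners of IRF4 and IRF8 all reached 1 CPM in every library, 10 of 10, with medians of 27.5, 16.9 and 26.4. SPIB, the ETS factor that joins IRF4 at composite sites, had 327 ± 51.3, POU2F2, the octamer factor OCT2, 242 ± 110 and POU2AF1, its coactivator, 27.4 ± 9.65. BATF, the AP-1 partner, had 51.4, 38.5 and 171 in replicates 1, 2 and 3, a mean of 87.1 ± 73.3 that was 44.9 without replicate 3. SPI1, which encodes PU.1, was the lowest at 1.27 ± 0.54, from 13, 6 and 2 counts, far below SPIB. BATF was not among the 3 highest of its list by CPM and was chosen after its values were seen.

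The corepressors through which BCL6 acts were all detected, with 7 of 7 at 1 CPM in every library and medians of 5.68, 6.77 and 5.41. TBL1XR1, a subunit of the NCOR complexes, had 36.9 ± 10.7, and MTA3 was the lowest at 1.97 ± 0.85. HDAC3, the deacetylase of these complexes, had 30.5, 8.01 and 10.1 in replicates 1, 2 and 3, a mean of 16.2 ± 12.4 that was 9.06 without replicate 1. Among the activators of BCL6 and its turnover factors, FBXO11, the ubiquitin ligase receptor that degrades BCL6, had 28.1 ± 4.03, the acetyltransferase gene EP300 10.5 ± 3.96 and TCF3 9.75 ± 3.93. MEF2B, an activator of BCL6 transcription, was the lowest with 4, 3 and 2 counts.

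Genes known to be repressed by BCL6 had medians of 38.3, 25.2 and 25.5, and 13 of 13 reached 1 CPM in every library. CD44, an adhesion receptor, had 86.0 ± 14.1, the cyclin gene CCND2 78.3 ± 10.4 and the survival gene BCL2 42.5 ± 18.9. GPR183, which guides B cells out of the germinal centre, was the lowest at 2.34 ± 0.86. By the chi-square test 10 of 12 varied between libraries, against 67.2% of all genes tested, and all of this is level in treated cells, with no measure of repression.

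Genes repressed by BLIMP1 were also expressed, beside PRDM1 at 10.5 ± 1.58. SPIB has been given, ETS1 had 55.3 ± 15.4 and PAX5, the keeper of B cell identity, 10.3 ± 2.75, while ID3 was the lowest, with 8, 1 and 1 counts. CIITA, the master regulator of HLA class II genes, was chosen after its values were seen and had 4.05 ± 0.38. Cofactors of BLIMP1 were at 1 CPM or more in each library for 6 of 6. The 3 highest by mean CPM had 57.0 ± 4.05 (HDAC1), 38.6 ± 7.83 (PRMT5, an arginine methyltransferase) and 7.10 ± 1.36 (HDAC2). TLE3 was the lowest at 1.17 ± 0.14. KDM1A, chosen after its values were seen, had 16.0 ± 5.39, above HDAC2 per kb.

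Partners and targets of BACH2 had medians of 5.65, 3.14 and 5.96. Its relative BACH1 had 6.59 ± 1.36, against 2.05 ± 1.19 for BACH2. TXNRD1, a thioredoxin reductase, had 55.8 ± 13.0 and NFE2L2, the activator that competes with BACH factors, 8.62 ± 3.35. The small MAF genes differed, with MAFG at 8.44 ± 2.30, MAFK at 1.11 ± 0.22 and MAFF the lowest with 21, 1 and 1 counts. MAFG, MAFK and HMOX1, a heme oxygenase gene repressed by BACH factors, at 5.92 ± 2.72, were chosen after their values were seen.

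Genes of the unfolded protein response that act upstream of or beside XBP1 were led by ATF4. ATF4, the effector of the PERK branch, had 161 ± 37.9 and ATF6 3.49 ± 0.66, DDIT3, a stress-induced factor linked to cell death, 6.04 ± 1.38 and EIF2AK3, which encodes PERK, 1.44 ± 0.26. ERN1, the enzyme that splices XBP1, had 0.889 ± 0.069 from 51, 14 and 13 counts, and a difference between the libraries was not detectable at these counts (adjusted p = 0.901, chi-square test). ATF4 was the only 1 of the 5 that passed the test between libraries (adjusted p = 1.07e-16, chi-square test), against 67.2% of all genes tested. It also had the most counts of the 5, at 2267, 471 and 610.

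Targets of XBP1 in the secretory pathway were at 1 CPM or more in each library for 15 of 17, against 68% of all genes, with medians of 16.7, 12.8 and 14.2. PDIA6, a protein disulfide isomerase, had 164 ± 52.1, HSPA5, the chaperone BiP, 102 ± 16.1 and SEC61A1, the channel of the endoplasmic reticulum, 51.7 ± 18.8. WFS1 had 0 counts in all 3, below a floor set at 3 counts, or 0.60, 1.89 and 2.30 CPM in replicates 1, 2 and 3. That floor is a convention and not an exact interval, so a higher level is possible. In the chi-square test 13 of 15 tested passed, against 67.2% of all genes tested.

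Of 14 germinal centre genes 10 reached 1 CPM in every library, and of 15 plasma cell genes 11, both near the 68% of all genes in the table that did. EZH2, a histone methyltransferase, had 64.6 ± 36.2 and LRMP 24.7 ± 9.58, while SERPINA9 had 0, 1 and 0 counts. S1PR2, a confinement receptor, had 0, 0 and 1 counts, and GCSAM 0, 3 and 0 counts. MME had 8, 4 and 3 counts, ELL3 2, 1 and 2, and NUGGC 18, 3 and 3. Some others of the list had more counts, such as LMO2 with 101, 20 and 19, RGS13 with 253, 27 and 15 and MYBL1 with 53, 45 and 28. The list medians were 1.46, 2.15 and 1.90, near that of all genes.

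In the plasma cell list PIM2, a survival kinase gene, had 177 ± 36.1, SEC11C, a signal peptidase subunit, 50.4 ± 12.4 and ELL2, an elongation factor of secretory immunoglobulin messages, 9.58 ± 0.39. TNFRSF17, which encodes BCMA, and TXNDC5 each had 2, 0 and 0 counts. SDC1, which encodes the plasma cell marker CD138, had 10.0, 3.77 and 13.8 CPM, and MZB1, a chaperone of immunoglobulin assembly, 45.8, 10.1 and 64.4 CPM. JCHAIN, the joining chain of secreted antibodies, had 3.0, 9.43 and 26.1 CPM in replicates 1, 2 and 3. Other genes of the list were highest in replicate 1, such as SLAMF7 with 64.8, 40.9 and 49.1 CPM and FKBP11 with 17.2, 10.1 and 9.97. Of the 15 genes, 6 were highest in replicate 1 and 2 in replicate 2. For genes whose mean reached 10 CPM, a level that not all of the list reached, these shares were 43.1% and 28.7%. The list medians were 3.47, 3.70 and 9.47 CPM per kb. CD2, KRT8, CDH1, DDIT3, S1PR2, GCSAM, MME, ELL3, NUGGC, LMO2, RGS13, MYBL1, SDC1, TXNDC5, MZB1, JCHAIN, SLAMF7 and FKBP11 were chosen after their values were seen.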

How the data were processed

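RNA of OCI-Ly10 cells was sequenced in 3 replicate libraries. The authors deposited raw counts per gene and, separately, log2 CPM of their own normalization. The submitters' processing notes name STAR, edgeR and hg38. How reads were counted, on which strand and with which annotation is not stated. IDs were matched without their version to GENCODE release 29 (15668 of 15808), which gave symbols, positions and merged exon lengths, and listed genes with an older symbol were matched through RefSeq synonyms (FAM46C).

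Counts were scaled with TMM (edgeR 4.0.16, R 4.3.3). A chi-square test compared libraries, and ratios between genes were tested by an exact sign-flip permutation test. The chi-square test was also run on simulated Poisson counts. That checks the calculation only, since the test itself assumes Poisson counts. Named genes are the 6 regulators, the IRF family, the 3 highest and the lowest gene of each list by mean CPM and the most similar gene to each regulator, and some genes that this rule names are not reported here. Members and lists were chosen with earlier results of these data known. Alternatives were DESeq2 1.42.0 size factors, column totals, the deposited log2 values, other filters, lengths and pseudocounts, thinning to equal depth and leaving out each replicate.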

Additional observations from a re-analysis of the deposited data

How the results depend on the processing

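The median level of the 6 regulators, 37.7 CPM, was 51.3 CPM with the deposited log2 values, and the cause was not tested. It stayed between 35.2 and 40.2 CPM with 1 replicate left out. PRDM1 over IRF8 turned from a log2 ratio of 0.17 to -0.29 with the longest transcript as length, -0.50 with the longest coding sequence and -0.32 without replicate 2, and leaving out 1 replicate gave -0.32 to 0.48. No other of the 15 pairs changed sign under the 9 alternatives, and 10 to 15 pairs kept 1 direction in every library, the fewest with no length correction. The number of regulators that varied between libraries was 5 with DESeq2 size factors, 4 with column totals, either filter or thinning, and 3 to 4 with 1 replicate left out. With thinned counts BCL6 passed (adjusted p = 0.0426, chi-square test) and XBP1 did not (0.053). Genes varying over the whole table fell to 2854 of 8447 without replicate 1, against 6728 of 10016. Listed genes at 1 CPM in every library numbered 101, 102 to 103 with 1 replicate left out and 89 at 5 CPM. Depth limits BCL6, XBP1 and BACH2 most, with 9 to 46 counts in replicates 2 and 3. No paired analysis was possible because the samples form 1 group.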
